A study of Mus musculus with 14 samples.

Results

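The genes described here are a list of mitosis and spindle genes, named by symbol (older aliases counted) and followed across early B cell development in mouse bone marrow. The list holds 40 genes, and 39 of them were measured, out of 18193 genes with a named probe set on the Affymetrix array. Where several probe sets read a gene, the one with the highest mean over all arrays was taken, which applied to 27 members; the other 12 had 1 probe set. Cyclin B1 (Ccnb1) was not analysed here because no probe set carried its symbol in the annotation used.

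The 14 arrays fell into 6 groups of sorted marrow cells from C57Bl6 mice of 8 to 12 weeks. In 2 groups of 3 arrays each, fetal liver from day 15 embryos carrying a λ5 reporter, either wild type (WT engrafted) or lacking Pax5 (Pax5KO engrafted), had been transplanted into wild type mice. The recipients were irradiated at a sublethal dose, so host cells remain in them, and cells positive for B220 and for the donor's reporter were sorted 4 weeks later. The other 4 groups, of 2 arrays each, came from mice without a transplant: Ly6D- and Ly6D+ common lymphoid progenitors (CLP), ProB cells and PreB cells. The labels call the arrays biological replicates but do not say whether animals were pooled, and they give the groups without transplant only by name, with no sort gate. PreB arrays are numbered 2 and 3 after their titles; their descriptions number them 1 and 2, and the replicate block used those numbers. Without word of separate animals, the p-values below measure only the spread between these arrays.

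Mitosis separates the copied chromosomes on a spindle of microtubules. Cyclin-dependent kinase 1 with its cyclins and the Polo-like and Aurora kinases drive entry, kinetochores tie each chromosome to the spindle, the spindle checkpoint delays separation until all are tied, and the anaphase-promoting complex then releases the sister chromatids before the cell is cut apart. Most of these genes are transcribed late in the cell cycle, so their transcripts are widely read as a measure of how many cells of a population divide; in the B lineage, progenitors that depend on interleukin 7 and large pre-B cells proliferate, and small pre-B cells leave the cycle to rearrange light chain genes.

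Promoters of genes transcribed late in the cycle often hold a short element, TTTGAA, near the start site (the cell cycle genes homology region), and CCAAT boxes upstream of it. RefSeq promoter windows of assembly GRCm38.p6, from 250 bases before to 50 bases after a gene's start, were found for 33 of the 39 measured members, which gave 35 windows. TTTGAA was found on either strand in 27 of these 35 windows (77.1%), against 17.9% of all 32851 windows. CCAAT was also found in 27 (77.1%, against 37.4%), 19 held at least 2 copies (54.3%, against 11.7%), and 24 held TTTGAA and CCAAT (68.6%, against 6.95%). Both motifs overlapped in 1 window, and in 25 windows TTTGAA began between 50 bases before and 45 bases after the start. Ect2 and Prc1 each entered that count with 2 overlapping windows. It was not made over all windows, so it is no result about where the element lies. The element was found in 48.8% of 80 windows of other mitotic genes, 13.6% of 44 windows of DNA replication genes and 5.56% of 18 windows of G1 and quiescence regulators. In the same order, CCAAT was found in 66.2%, 59.1% and 38.9%, and at least 2 copies in 36.2%, 34.1% and 16.7%. Both motifs stood in 33.8%, 11.4% and 0%. CCAAT was thus common in the other mitotic and the replication windows too. A match is a match of letters, and no binding was measured. The 6 stretches below are the 120 bases before the start of members in which TTTGAA lies within 40 bases of the start with CCAAT upstream. They are read 5′ to 3′ along the gene, with TTTGAA (or its complement TTCAAA) and CCAAT (or ATTGG) in capitals.
Cdc20 (chr4:118437344-118437463, - strand): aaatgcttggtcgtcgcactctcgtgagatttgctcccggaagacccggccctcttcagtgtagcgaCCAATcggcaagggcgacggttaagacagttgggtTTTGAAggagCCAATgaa
Cdk1 (chr10:69352913-69353032, - strand): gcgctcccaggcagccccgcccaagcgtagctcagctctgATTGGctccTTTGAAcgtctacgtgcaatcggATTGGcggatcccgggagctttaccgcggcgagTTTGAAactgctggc
Kif11 (chr19:37376262-37376381, + strand): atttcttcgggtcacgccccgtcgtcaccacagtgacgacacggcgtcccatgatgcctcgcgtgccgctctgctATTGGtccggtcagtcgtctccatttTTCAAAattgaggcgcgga
Prc1 (chr7:80294356-80294475, + strand): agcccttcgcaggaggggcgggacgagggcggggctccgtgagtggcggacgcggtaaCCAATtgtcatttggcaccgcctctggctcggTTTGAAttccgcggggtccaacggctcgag
Top2a (chr11:99024190-99024309, - strand): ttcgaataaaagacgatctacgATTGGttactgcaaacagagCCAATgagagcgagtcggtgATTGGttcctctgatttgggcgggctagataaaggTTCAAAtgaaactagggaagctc
Ube2c (chr2:164769809-164769928, + strand): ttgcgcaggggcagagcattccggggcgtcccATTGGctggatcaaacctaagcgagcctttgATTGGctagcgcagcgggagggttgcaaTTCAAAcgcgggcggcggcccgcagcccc
The element began 18 bases before the start in Cdc20, 15 in Cdk1, 19 in Kif11, 30 in Prc1, 23 in Top2a and 29 in Ube2c. These 6 were chosen by that place, so it is no result about the members; in others the element began after the start, as in Plk1, Aurka and Spc25, and Nuf2 and Pttg1 held neither motif.

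**Figure D1:**
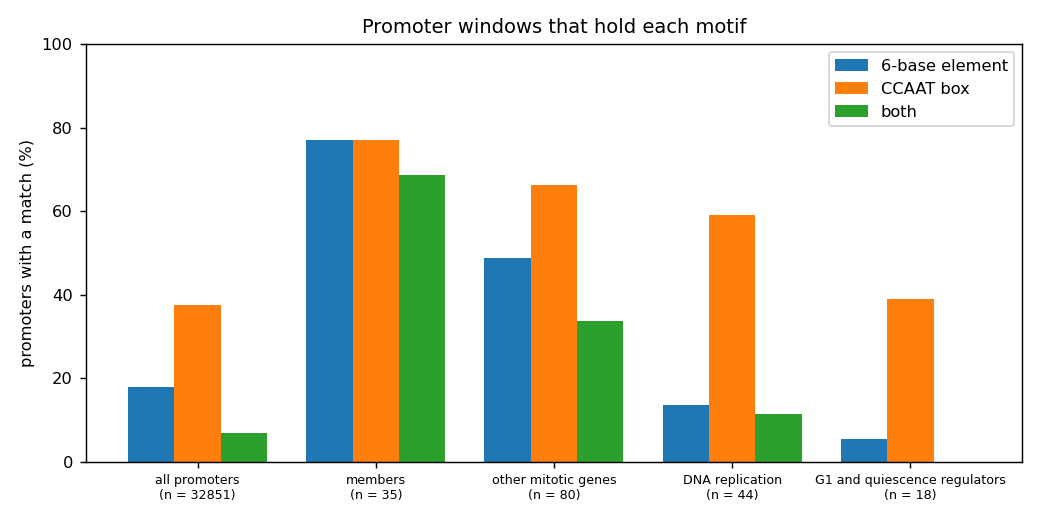
Share of promoter windows (vertical axis, %) that hold the 6-base element, the CCAAT box, or both, for all promoters, the members and 3 other gene lists, with the number of windows under each. Both motifs stand in 68.6% of the member windows, in 33.8% of those of other mitotic genes and in 6.95% of all windows.

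Values are the deposited log2 signals, so a difference of 1 is a doubling. The lowest value of the table is 2.32, and values within 0.5 of it are called the floor. Only Cdc25c on Ly6D- CLP array 2 (2.51) lay there among the members. On the arrays labelled Pax5KO the Pax5 probe set read 7.95, 7.92 and 7.57, above the 6.76, 6.18 and 6.60 of the WT engrafted arrays; which part of Pax5 is deleted is not given in the sources used here, so this signal does not check the genotype. Cd2, a pre-B marker, was at the floor in all groups other than PreB (9.66 and 9.52) and WT engrafted (7.93 to 9.28). Other pre-B markers did not follow Cd2 in every group. Cd22 read 8.67 and 8.74 in ProB against 7.86 and 8.04 in PreB, and Ms4a1 read 7.01 and 7.02 in ProB. Il2ra read 4.16 to 5.42 in the arrays labelled Pax5KO, and Bach2 at least 7.34 on every array. All 5 pre-B markers averaged 6.11 to 6.17 in ProB, 9.26 to 9.44 in PreB and 9.39 to 10.38 in WT engrafted cells. Flt3, a progenitor receptor, read 8.74 to 9.98 in the arrays labelled Pax5KO against 3.39 to 3.66 in WT engrafted. Of 8 measured B lineage markers, Cd79a was at the floor in Ly6D- CLP and none was in the other groups. Erythroid Hba-a1 and Klf1 and the T and NK cell genes Cd3e, Cd3g, Cd8a and Ncr1 were at the floor in every group. Some others of these lists were not. Nkg7 read 8.17 to 9.32 in the CLP groups and 6.77 and 7.58 in PreB, and Gzma read 10.31 and 10.95 in PreB. Of the erythroid genes, Ermap read 5.74 and 5.32 and Slc4a1 6.63 and 5.03 in PreB, and Tfrc at least 9.44 on every array. Xist was above 8 on both ProB arrays, on the arrays labelled Pax5KO and on WT engrafted array 3, and at the floor on the rest.

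The members were lowest as a set in Ly6D- CLP and PreB cells and highest in ProB and WT engrafted cells. Their mean log2 signal was 8.73 and 7.86 on the Ly6D- CLP arrays, 9.24 and 9.15 on the Ly6D+ CLP arrays, 10.32 and 10.41 in ProB and 8.76 and 8.61 in PreB. In the engrafted cells it was 10.27, 10.53 and 10.41 for WT and 9.74, 10 and 9.28 for Pax5KO. ProB and WT engrafted arrays overlapped and lay above every other array, and the arrays labelled Pax5KO stood between them and the Ly6D+ CLP arrays. Group means were 8.30 ± 0.61 (SD, n = 2) in Ly6D- CLP, 9.19 ± 0.06 (SD, n = 2) in Ly6D+ CLP, 10.36 ± 0.07 (SD, n = 2) in ProB and 8.69 ± 0.10 (SD, n = 2) in PreB. They were 10.40 ± 0.13 (SD, n = 3) in WT engrafted and 9.68 ± 0.36 (SD, n = 3) in Pax5KO engrafted cells. Gene by gene, 21 members were highest in WT engrafted and 18 in ProB cells, while 25 were lowest in Ly6D- CLP, 11 in PreB and 3 in Ly6D+ CLP. Of the genes that are not dim, that is at 5 or above on at least 2 arrays, 14% were highest in WT engrafted and 13.1% in ProB cells, and 20.1%, 30.1% and 12.2% were lowest in Ly6D- CLP, PreB and Ly6D+ CLP, so the share of members lowest in PreB was near that background. In bulk RNA, fewer dividing cells and less RNA per dividing cell cannot be told apart.

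**Figure D2:**
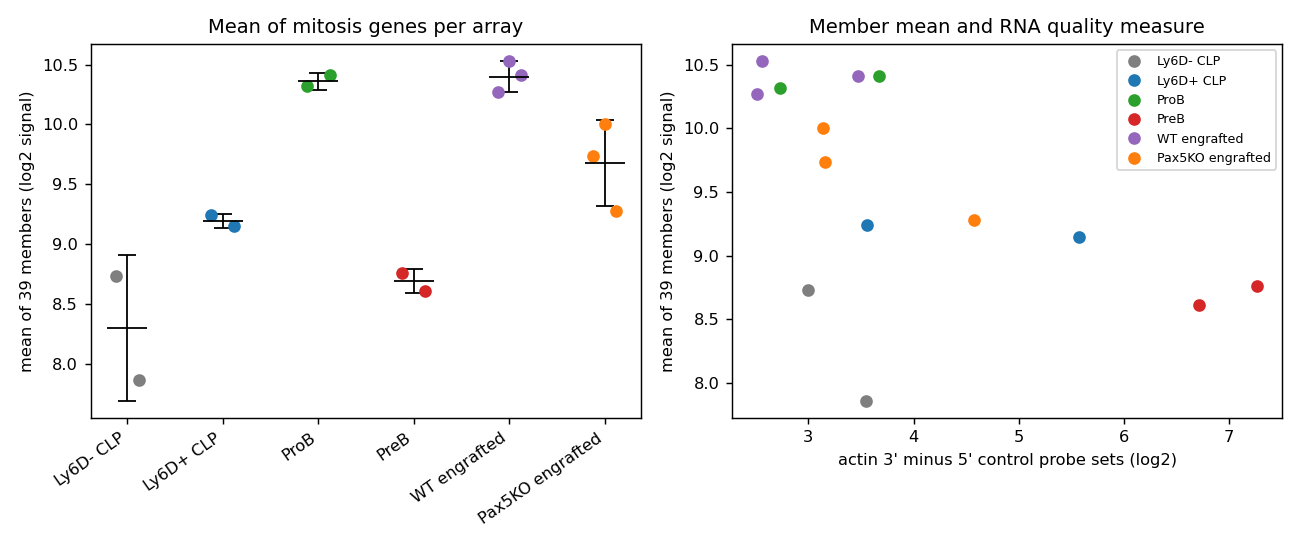
Left, mean log2 signal of the 39 members (vertical axis) per array (points) in the 6 groups, with group mean and SD (bars). Right, the same mean against the actin control probe sets' 3′ minus 5′ difference (log2), which is largest, at 7.27 and 6.71, on the PreB arrays whose member means are 8.76 and 8.61. The Gapdh difference, not drawn, is largest on Pax5KO engrafted array 3 (5.79) and WT engrafted array 3 (5.44), whose member means are 9.28 and 10.41.

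Each gene was tested with limma in 1 fit of all 14 arrays, and called where the p adjusted over 18193 genes was under 0.05. By the F test over the 6 groups 25 of 39 members were called, where 21.4% of all genes were. From Ly6D- to Ly6D+ CLP no member was called (all genes: 0.813% higher, 0.638% lower). The median difference was 0.91, and 35 members lay above 0, against 53.4% of the genes that are not dim. For 13 members the unadjusted limma p was under 0.05 (9.94% of all genes). From Ly6D+ CLP to ProB 8 members rose and none fell, with a median of 1.16 (all genes: 1.93% higher, 5.36% lower; among the 8807 genes that are not dim, 3.2% higher). From ProB to PreB 15 members fell and none rose (all genes: 5.19% lower, 6.35% higher). Among the genes that are not dim, 9.9% were called lower. All 39 members lay below 0, with a median of -1.46, against 48.5% of the genes that are not dim. From Ly6D+ CLP to ProB the mean of the granulocyte and monocyte markers was 4.09 to 4.57 (7 of 12 at the floor) against 2.99 (7 at the floor), with Mpo at 10.70 and 11.04 against 3.27 and 3.18. The mean of 5 progenitor markers was 10.62 to 10.70 against 7.19 to 7.28. The actin 3′ minus 5′ difference, a measure of RNA length, was 3.56 and 5.57 against 2.73 and 3.67. The same difference for Gapdh was 3.27 and 4.55 against 2.40 and 3.32. Xist read 2.33 on both Ly6D+ CLP arrays against 10.71 and 11.49 in ProB, with no term for it in any fit of this step. The part of these measures in the rise was not tested. The median over genes that are not dim was 0.04, -0.22 and 0.04 at these 3 steps. Over all probe sets of the called members, 10 of 19 were called from Ly6D+ CLP to ProB and 20 of 33 from ProB to PreB, and none was called in the opposite direction.

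Between WT engrafted and ProB cells no member was called (all genes: 3.63% higher, 1.3% lower) and the median was 0.01. For 3 members the unadjusted limma p was under 0.05 (15.8% of all genes). Transplant, sort gate and donor stage differ together between these groups and cannot be told apart, and the lack of calls does not show equal levels. Between Pax5KO and WT engrafted cells 1 member fell and none rose (all genes: 2.29% lower, 3.64% higher). All 39 lay below 0, with a median of -0.73. The median over genes that are not dim was 0.09, and 44.4% of those genes lay below 0. For 17 members the unadjusted p was under 0.05, against 15.2% of all genes. Between Pax5KO engrafted and ProB cells 3 members fell and none rose (all genes: 1.02% lower, 4.22% higher), with a median of -0.70. These comparisons share the ProB or WT arrays and are not independent of each other. Nor are the members: each had an r of 0.50 to 0.97 with the mean of the others over the 14 arrays. Counts of members above or below 0, here and at the steps above, are thus not counts of independent results.

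With arrays set to equal medians over genes above 5 on every array, the median of all genes shifted by 0.23 from Ly6D+ CLP to ProB, by -0.23 between WT engrafted and ProB and by -0.29 between Pax5KO engrafted and ProB cells. The member medians were then 1.38, -0.22 and -0.98, so the median between WT engrafted and ProB cells changed sign and was close to the shift of all genes. All-gene calls in these 3 comparisons split 351 higher to 976 lower, 661 to 236 and 768 to 185. They split 622 to 878, 575 to 533 and 576 to 371 with equal medians, and 553 to 699, 428 to 382 and 411 to 290 after quantile normalization.

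**Figure D3:**
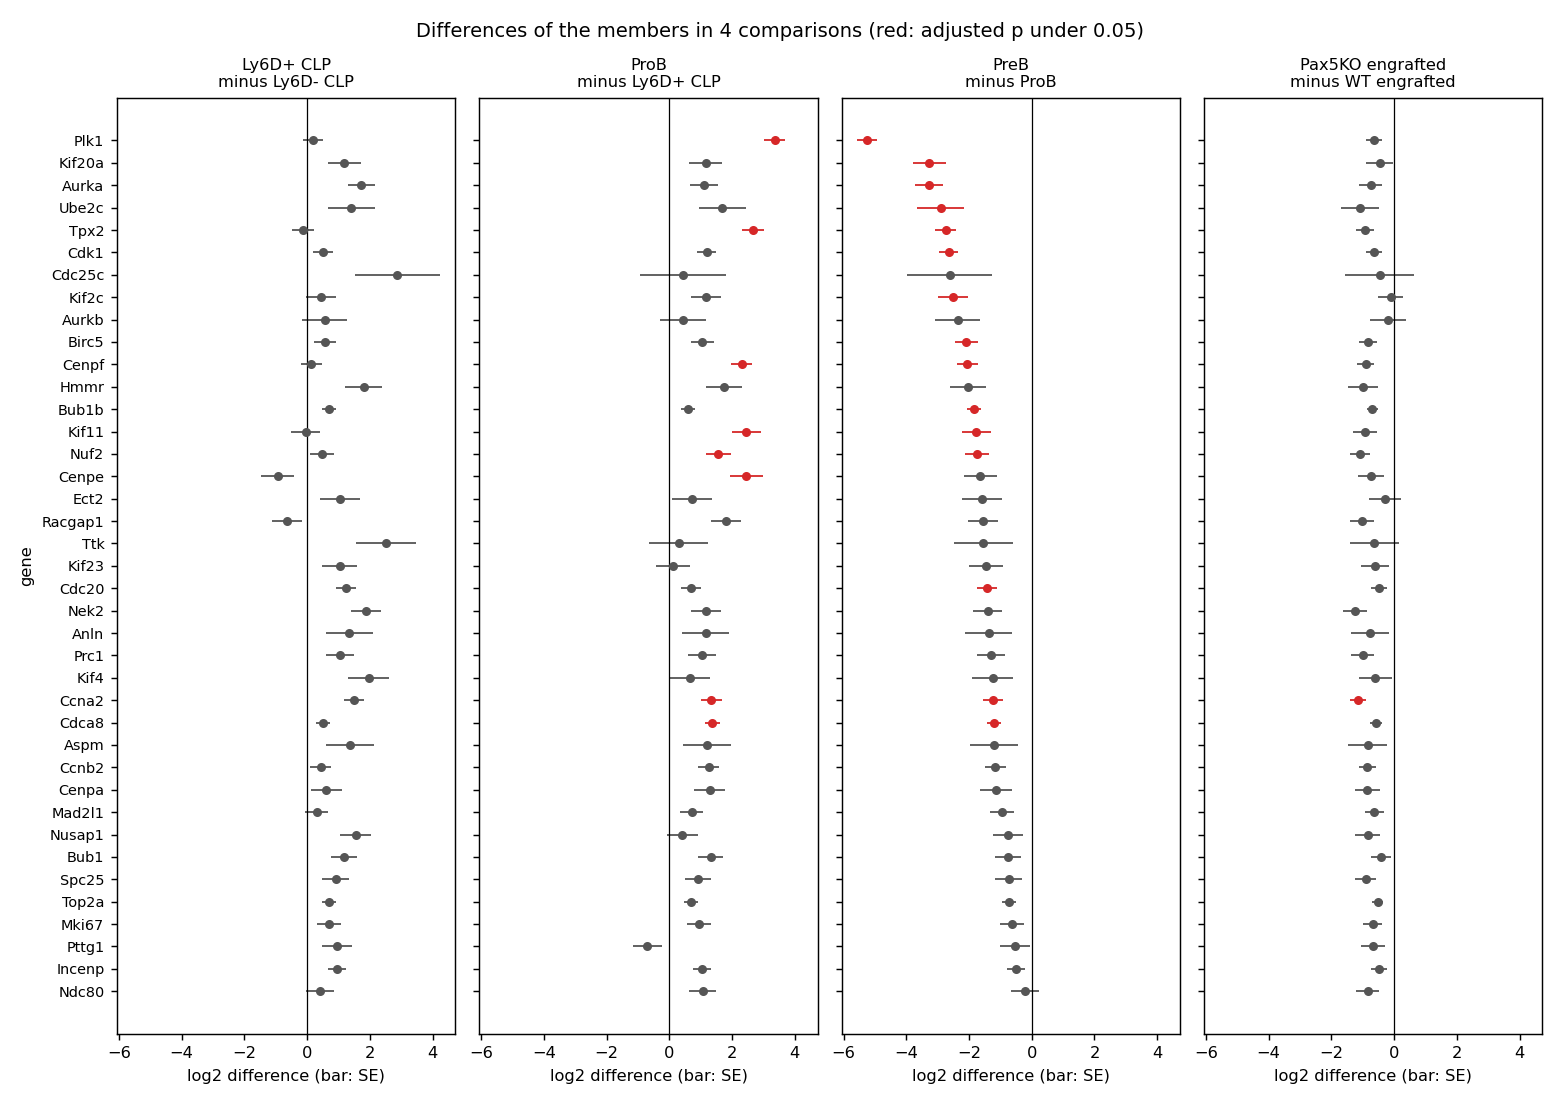
Log2 difference (horizontal axis) with its SE for each of the 39 members in 4 comparisons, ordered by the PreB minus ProB difference, with called members in red. All 39 points lie below 0 in PreB against ProB and in Pax5KO against WT engrafted cells, with 15 and 1 called.

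The kinases and cyclins of mitotic entry held the widest change. Plk1, the Polo-like kinase of centrosome maturation and mitotic entry, read 6.62 and 5.88 on the Ly6D- CLP arrays, 6.84 and 6.02 on those of Ly6D+ CLP, 9.73 and 9.83 in ProB and 4.43 and 4.63 in PreB cells. It read 9.04, 9.03 and 9.10 in WT engrafted and 8.67, 8.54 and 8.04 in Pax5KO engrafted cells. PreB lay below both CLP groups and ProB above every other group, with no overlap. Plk1 rose by 3.35 (SE 0.32, limma adjusted p = 0.000676) from Ly6D+ CLP to ProB and fell by 5.25 (SE 0.32, adjusted p = 3.27e-05) from ProB to PreB, the largest range of group means among the members. Its difference was 0.18 (SE 0.32, adjusted p = 1) between the CLP groups.

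Aurka, the Aurora kinase of spindle poles, read 7.22 and 5.64 on the Ly6D- CLP arrays, 8.18 and 8.14 on those of Ly6D+ CLP, 9.31 and 9.20 in ProB and 6.0 and 5.98 in PreB. In engrafted cells it read 9.03, 9.17 and 8.88 for WT and 8.38, 8.65 and 7.81 for Pax5KO. The PreB values lay far below the ProB values, and Aurka fell by 3.27 (SE 0.44, adjusted p = 0.00227) at that step. As the mean of its 2 probe sets the difference was -1.63, but the other probe set lay at the floor (mean 2.41). Cdk1, the kinase that triggers mitosis, read 10.75 and 10.96 in ProB and 8.56 and 7.84 in PreB, and fell by 2.65 (SE 0.31, adjusted p = 0.0011). It was between 9.02 and 9.67 in the CLP groups, 10.67, 10.84 and 11.50 in WT engrafted and 10.15, 10.58 and 10.32 in Pax5KO engrafted cells.

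Ccna2, the cyclin A of S phase and early mitosis, was called in each of the 4 comparisons in which any member was. It read 9.52 and 9.18 on the Ly6D- CLP arrays, 10.38 and 11.32 on those of Ly6D+ CLP, 12.11 and 12.27 in ProB and 10.83 and 11.04 in PreB. It rose by 1.34 (SE 0.32, adjusted p = 0.0425) to ProB and fell by 1.25 (SE 0.32, adjusted p = 0.0408) to PreB. Both calls were close to the threshold: that to ProB ended without any 1 array other than the second Pax5KO, WT engrafted or Ly6D+ CLP array (adjusted p 0.0522 to 0.17), and that to PreB without any 1 array other than the second Pax5KO or WT engrafted or either Ly6D+ CLP array (0.0511 to 0.17).

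Ccnb2, a B-type cyclin, was not called at any step. It read 9.19 and 8.72 on the Ly6D- CLP arrays, 9.84 and 8.93 on those of Ly6D+ CLP, 10.40 and 10.87 in ProB, 9.69 and 9.24 in PreB, 11.59, 11.79 and 11.82 in WT engrafted and 10.89, 11.16 and 10.60 in Pax5KO engrafted cells. All WT engrafted arrays lay above both ProB arrays, and this was the largest difference between those groups (1.10, SE 0.30, adjusted p = 0.0828). Nek2, a centrosome kinase, read 6.21 and 7.05 on the Ly6D- CLP arrays, 8.17 and 8.85 on those of Ly6D+ CLP, 9.73 and 9.60 in ProB and 8.28 and 8.23 in PreB. Cdc25c, the phosphatase that activates Cdk1, read 7.67 and 2.51 in Ly6D- CLP, against 8.06 and 7.89 in Ly6D+ CLP, so its difference of 2.88 (SE 1.36, adjusted p = 0.494) rests on 1 array at the floor.

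The chromosomal passenger complex corrects wrong attachments and guides cytokinesis, and 2 of its 4 members fell from ProB to PreB. Birc5 (survivin) read 9.67 and 9.50 in ProB and 7.77 and 7.23 in PreB, and fell by 2.09 (SE 0.36, adjusted p = 0.00742). In the other groups it read 8.26 and 7.67 on the Ly6D- CLP arrays, 8.47 and 8.60 on those of Ly6D+ CLP, 10.03, 10.16 and 11.05 in WT engrafted and 9.42, 9.91 and 9.43 in Pax5KO engrafted cells. Cdca8 (borealin) read 11.30 and 11.24 on the Ly6D+ CLP arrays, 12.21 and 13.08 in ProB and 11.44 and 11.41 in PreB. It rose by 1.37 (SE 0.23, adjusted p = 0.00836) and then fell by 1.21 (SE 0.23, adjusted p = 0.0105), so the ProB arrays stood above the stages on either side.

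Aurkb, the kinase of the complex, read 9.72 and 7.69 on the Ly6D- CLP arrays, 9.38 and 9.15 on those of Ly6D+ CLP, 9.48 and 9.92 in ProB and 7.86 and 6.80 in PreB. Its difference from ProB to PreB of -2.36 (SE 0.72, adjusted p = 0.0732) was larger than those of Birc5 and Cdca8 but its arrays scattered more, and it was not called. In engrafted cells it read 9.87, 10.29 and 9.87 for WT and 10.37, 10.24 and 8.81 for Pax5KO, which overlap. Incenp, the scaffold of the complex, read 12.44 and 13.21 in ProB and 12.35 and 12.29 in PreB, a difference of -0.51 (SE 0.29, adjusted p = 0.343). Its probe sets disagree: in a fit of all probe sets the next brightest, with a mean of 8.25, differed by -3.05 (SE 0.52, adjusted p = 0.00818) at this step.

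Of 4 spindle checkpoint genes, Bub1b (BubR1), which holds back the anaphase-promoting complex, was the one called from ProB to PreB. It read 10.91 and 11.49 in ProB and 9.45 and 9.26 in PreB, and fell by 1.85 (SE 0.22, adjusted p = 0.00131). Its PreB values lay below the CLP values of 9.86 to 10.71. The kinase Bub1 differed by -0.76 (SE 0.41, adjusted p = 0.299), and Mad2l1, the checkpoint protein with the smallest range of group means of all members (1.02), by -0.95 (SE 0.37, adjusted p = 0.16). Ttk, the kinase that starts checkpoint signalling, read 7.24 and 4.31 in Ly6D- CLP and 7.15 and 9.41 in Ly6D+ CLP, with no test passed at a difference of 2.51 (SE 0.95, adjusted p = 0.384).

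Of 3 genes of anaphase, 2 fell from ProB to PreB. Cdc20, the activator of the anaphase-promoting complex, read 11.42 and 10.38 on the Ly6D- CLP arrays, 12.20 and 12.09 on those of Ly6D+ CLP, 12.67 and 13.01 in ProB and 11.27 and 11.57 in PreB. It fell by 1.42 (SE 0.32, adjusted p = 0.0219) from ProB to PreB, a call that ended without either PreB array or without ProB array 2 (adjusted p 0.056 to 0.122). Ube2c, the ubiquitin-conjugating enzyme of that complex, read 10.33 and 10.94 in ProB and 7.70 and 7.77 in PreB. It fell by 2.90 (SE 0.75, adjusted p = 0.0409), and this call ended without any 1 ProB, PreB or WT engrafted array or Pax5KO array 1 (0.0595 to 0.186). Ube2c followed the mean of the other members most closely (r = 0.97 over 14 arrays), and Pttg1 (securin), the inhibitor whose removal frees separase, least (r = 0.50). Pttg1 read 11.04 and 11.78 on the Ly6D+ CLP arrays, 10.94 and 10.48 in ProB and 10.28 and 10.05 in PreB, and was the only member with a lower mean in ProB than in Ly6D+ CLP (-0.70, SE 0.47, adjusted p = 0.457).

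Centromere and kinetochore genes gave 3 of the 8 calls from Ly6D+ CLP to ProB. Cenpf, a kinetochore protein that accumulates before mitosis, read 7.81 and 8.13 on the Ly6D- CLP arrays, 8.05 and 8.14 on those of Ly6D+ CLP, 10.37 and 10.44 in ProB and 8.33 and 8.37 in PreB. It rose by 2.30 (SE 0.34, adjusted p = 0.00513) and fell by 2.05 (SE 0.34, adjusted p = 0.00624). As the mean of its probe sets, with the dimmest at the floor (mean 2.52), the differences were 1.39 and -1.19. The CLP groups overlapped and PreB lay just above them, with ProB above all 3.

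Cenpe, the kinetochore motor, read 8.24 and 7.52 on the Ly6D- CLP arrays, 7.74 and 6.16 on those of Ly6D+ CLP and 9.48 and 9.31 in ProB. It rose by 2.45 (SE 0.52, adjusted p = 0.0245) to ProB, a call that ended without either ProB array or Ly6D+ CLP array 2 (0.07 to 0.084). Nuf2, a subunit of the Ndc80 complex that grips microtubules, read 8.37 and 8.63 on the Ly6D+ CLP arrays, 10.15 and 9.98 in ProB and 8.35 and 8.29 in PreB. It rose by 1.56 (SE 0.39, adjusted p = 0.0485) and fell by 1.74 (SE 0.39, adjusted p = 0.0226), with ProB above both neighbours. Leaving out 1 array ended the call of the rise for each array other than Pax5KO array 3 and those of Ly6D- CLP (0.0607 to 0.142), and the fall ended without any 1 ProB or PreB array (0.0741 to 0.093).

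Other kinetochore members changed less from ProB to PreB. Ndc80, the partner of Nuf2, read 8.97 and 8.65 in ProB and 9.09 and 8.08 in PreB, which overlap, and its difference of -0.22 (SE 0.44, adjusted p = 1) was the smallest of all members. Spc25, another subunit, read 10.69 and 10.61 in ProB and 10.13 and 9.69 in PreB (-0.74, SE 0.42, adjusted p = 0.323). Cenpa, the centromere histone, read 9.62 and 8.70 on the Ly6D- CLP arrays, 10.37 and 9.17 on those of Ly6D+ CLP, 10.76 and 11.36 in ProB, 9.69 and 10.15 in PreB, 11.38, 10.94 and 11.35 in WT engrafted and 10.36, 10.88 and 9.84 in Pax5KO engrafted cells, and passed no test.

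Among spindle motors and assembly factors, Tpx2 and Kif11 rose from Ly6D+ CLP to ProB. Tpx2, which activates Aurka on spindle microtubules, read 6.85 and 7.67 on the Ly6D- CLP arrays, 7.49 and 6.74 on those of Ly6D+ CLP, 9.61 and 9.97 in ProB and 7.36 and 6.72 in PreB. It rose by 2.67 (SE 0.35, adjusted p = 0.00266) and fell by 2.75 (SE 0.35, adjusted p = 0.00171). As the mean of its 4 probe sets, with the dimmest at the floor (means 2.80 and 2.60), the differences were 1.18 and -1.39. PreB and CLP values overlapped, with ProB above all of them. Kif11, the motor that pushes spindle poles apart, read 7.39 and 7.50 on the Ly6D- CLP arrays, 7.22 and 7.58 on those of Ly6D+ CLP, 10.04 and 9.66 in ProB and 8.34 and 7.82 in PreB. It rose by 2.45 (SE 0.46, adjusted p = 0.015), a call that ended without Ly6D+ CLP array 1 (0.0523), and fell by 1.77 (SE 0.46, adjusted p = 0.0414). Leaving out 1 array ended that call for each array other than Pax5KO array 3 and WT engrafted arrays 1 and 2 (0.052 to 0.196), and the mean of its probe sets differed by -1.12 (adjusted p = 0.101).

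Kif2c, which takes microtubules apart at centromeres, read 9.75 and 10.40 in ProB and 7.26 and 7.86 in PreB, and fell by 2.51 (SE 0.48, adjusted p = 0.0118); without PreB array 2 or ProB array 2 it was not called (0.0657 to 0.0735), and as the mean of its probe sets it was -1.66. Hmmr, a spindle pole protein, read 9.75 and 10.21 in ProB and 7.67 and 8.22 in PreB, with no overlap and no call (-2.03, SE 0.58, adjusted p = 0.0566). In a fit of all probe sets, 2 of its other 4 were called at this step (-2.84, adjusted p = 0.0404, and -2.01, adjusted p = 0.00522). Kif4, Nusap1 and Aspm, which act on chromosomes and spindle microtubules, differed by -1.25, -0.76 and -1.20 at this step, with adjusted p of 0.288, 0.413 and 0.393.

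For the central spindle and cytokinesis, Kif20a, the motor that brings kinases to the midzone, was the member called. It read 8.34 and 6.77 on the Ly6D- CLP arrays, 9.15 and 8.32 on those of Ly6D+ CLP, 9.87 and 9.92 in ProB and 6.45 and 6.81 in PreB. It fell by 3.27 (SE 0.53, adjusted p = 0.00542) from ProB to PreB. The other 5 members differed by -1.29 to -1.58 at that step without a call: Prc1, which bundles midzone microtubules, Kif23 and Racgap1 of the centralspindlin complex, Ect2, the activator of RhoA, and Anln (anillin). Their adjusted p were 0.122, 0.152, 0.074, 0.182 and 0.309. Racgap1 also had lower values in Ly6D+ CLP (7.16 and 7.11) than in Ly6D- CLP (8.00 and 7.54), 1 of 4 members with that direction. The direction depended on the probe set: another of Racgap1, with a mean of 7.47, differed by 1.06 (SE 0.82) between the CLP groups. Cenpe, Tpx2 and Kif11, the others with that direction, each had a probe set that was higher in Ly6D+ CLP (2.15, 1.80 and 0.44). None of these probe sets was called.

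Of the 2 mitotic chromosome genes, Top2a passed the F test over the 6 groups (limma adjusted p = 0.00708) and Mki67 did not (0.0726). Top2a, the topoisomerase that untangles sister chromatids, read 11.35 and 11.20 on the Ly6D- CLP arrays, 11.72 and 12.23 on those of Ly6D+ CLP, 12.60 and 12.71 in ProB, 12.09 and 11.79 in PreB, 12.71, 12.95 and 12.80 in WT engrafted and 12.43, 12.53 and 11.93 in Pax5KO engrafted cells. Mki67, the Ki-67 protein that coats mitotic chromosomes and is used as a proliferation marker, read 12.00 and 11.90, 12.39 and 12.90, 13.50 and 13.65, and 13.01 and 12.85 in Ly6D- CLP, Ly6D+ CLP, ProB and PreB in that order. It read 13.40, 13.86 and 13.03 in WT engrafted and 12.95, 13.22 and 12.07 in Pax5KO engrafted cells. Neither was called in any of the 6 comparisons; from ProB to PreB they differed by -0.72 (SE 0.23, adjusted p = 0.0834) and -0.64 (SE 0.38, adjusted p = 0.35), where Plk1 differed by -5.25.

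**Figure D4:**
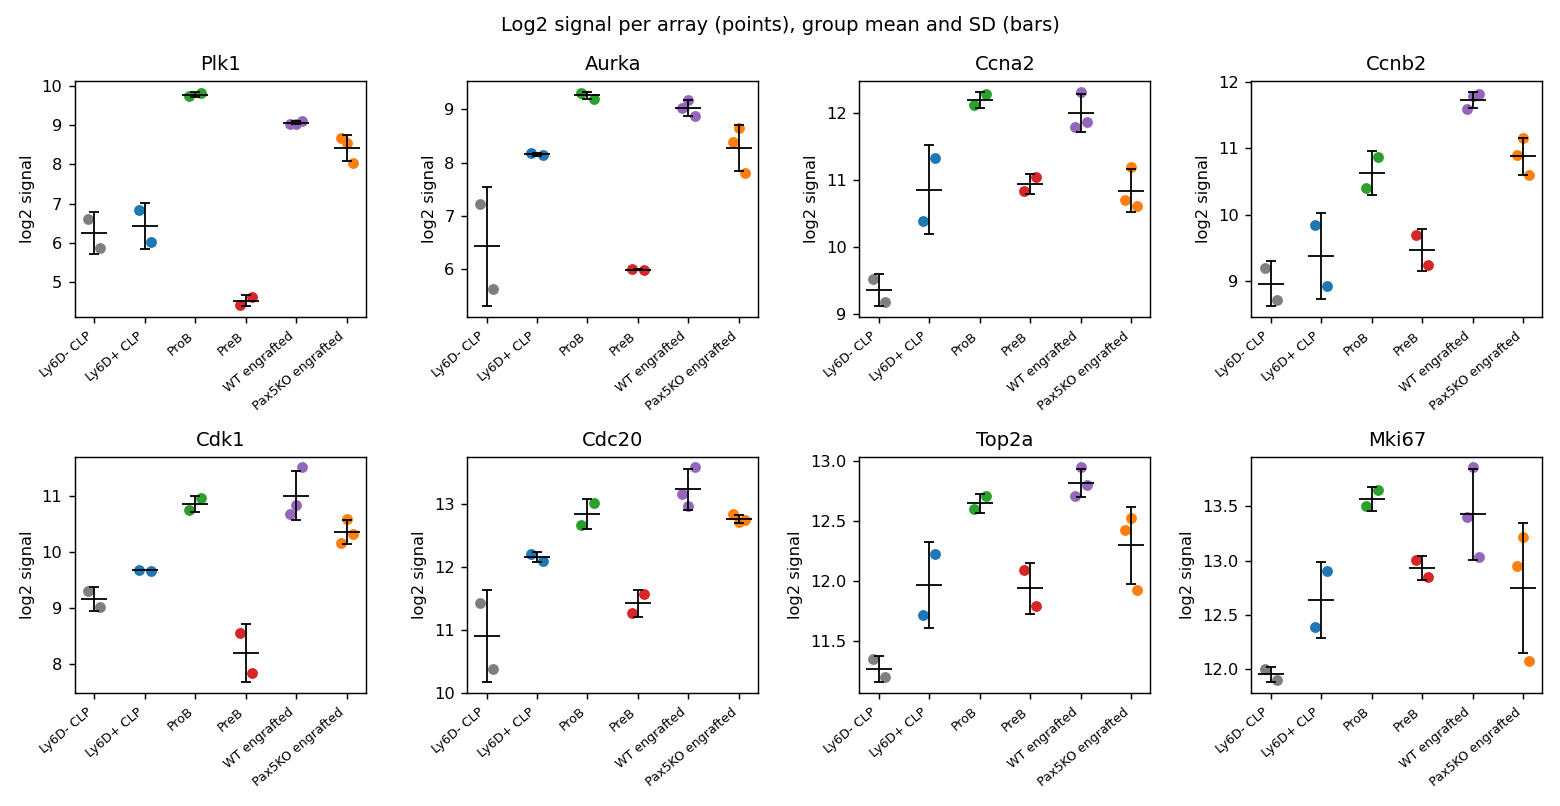
Log2 signal (vertical axis) of 8 members in the 6 groups, 1 point per array, with the group mean and SD as bars. Plk1 spans 4.53 in PreB to 9.78 in ProB as group means, while Mki67 and Top2a span 1.62 and 1.54 over all groups.

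Several measures moved with the ProB to PreB difference. The actin 3′ minus 5′ difference was 7.27 and 6.71 on the PreB arrays against 2.73 and 3.67 on the ProB arrays. The Gapdh difference was 4.88 and 4.35 against 2.40 and 3.32, with the PreB values below the 5.44 of WT engrafted array 3. The mean of 12 measured granulocyte and monocyte markers was 7.66 to 7.79 in PreB, with only Elane at the floor, against 2.99 in ProB with 7 at the floor, and S100a8 read 12.02 and 12.85 against 3.18 and 3.29. Gzma, a cytotoxic cell gene, read 10.31 and 10.95 in PreB against 2.35 and 2.47, and the mean of 6 measured T and NK cell markers was 4.44 to 4.73 against 2.44 to 2.64. Xist read 2.33 on both PreB arrays against 10.71 and 11.49 on the ProB arrays, and no fit with a term for it was run at this step. The part of all these measures in the fall of the members was not tested. Of the 15 falls, those of Plk1, Aurka, Kif20a and Cenpf were called under all 22 alternatives. With only the 4 ProB and PreB arrays in the fit, 7 members were called, and 9 were without PreB array 2 or ProB array 2. From Ly6D+ CLP to ProB the count was 5 without ProB array 2 and 0 with only the 4 arrays compared.

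The step from Ly6D- to Ly6D+ CLP depended on which Ly6D- array was used. Granulocyte and monocyte markers averaged 4.90 on Ly6D- CLP array 1 and 7.75 on array 2, where S100a8 read 10.59 against 2.39 on array 1. Without array 1, 9 members were called; without array 2, none was, and the median difference was 0.40 in place of 0.91. The largest differences were those of Cdc25c (2.88), Ttk (2.51), Kif4 (1.96, SE 0.65, adjusted p = 0.278) and Nek2 (1.88, SE 0.47, adjusted p = 0.118). Kif4, a chromosome-bound motor, read 7.06 and 4.59 in Ly6D- CLP and 7.96 and 7.61 in Ly6D+ CLP, with the same array 2 lowest.

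How reporter-positive cells differ when the donor lacks Pax5 was the question behind the engrafted groups. Ccna2 read 11.79, 12.31 and 11.86 in WT and 10.70, 11.19 and 10.60 in Pax5KO arrays, which do not overlap, and fell by 1.16 (SE 0.26, adjusted p = 0.0382). With the replicate number as a block the adjusted p was 0.0523 and no member was called, while 6 were called with equal array medians and 12 with array weights. The call also ended without any 1 array other than Pax5KO array 2 or a Ly6D+ CLP array (0.0517 to 0.137). Beside Ccna2, the largest differences were those of Nek2 (-1.25, SE 0.38, adjusted p = 0.116), Nuf2 (-1.10, SE 0.32, adjusted p = 0.0984) and Ube2c (-1.08, SE 0.61, adjusted p = 0.542).

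Nek2 read 9.94, 10.16 and 9.94 in WT and 9.13, 9.30 and 7.87 in Pax5KO engrafted cells. Nuf2 read 9.69, 9.54 and 9.39 against 8.73, 8.80 and 7.78. Ube2c read 10.64, 11.15 and 10.69 against 9.96, 10.65 and 8.64, where the second Pax5KO array reaches the WT values. In all 3 genes Pax5KO array 3 was the lowest. That array had the largest actin 3′ minus 5′ difference of the engrafted arrays, 4.57 against 3.16 and 3.14 on the other Pax5KO arrays and 2.51, 2.56 and 3.47 on the WT arrays. Its Gapdh 3′ minus 5′ difference was also the largest, 5.79 against 3.90 and 3.17 on the other Pax5KO arrays. On the WT arrays the Gapdh difference was 2.61, 3.02 and 5.44, the last on array 3, whose member mean was 10.41. Granulocyte and monocyte markers averaged 4.18 to 4.70 on the Pax5KO and 3.77 to 5.61 on the WT arrays. The part of these measures in the result was not tested. Without the engrafted arrays numbered 3, the median difference was -0.54 and no member was called. Xist was high on all Pax5KO arrays and on 1 WT array; with a term for it the median was -0.71 and Ccna2 had an adjusted p of 0.295.

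By role, the medians from WT to Pax5KO engrafted cells ran from -0.53 for the chromosomal passenger complex to -0.89 for centromere and kinetochore genes. The differences of single members ran from -0.11 for Kif2c to -1.25 for Nek2. Plk1 differed by -0.64 (SE 0.26, adjusted p = 0.276), with the WT arrays at 9.03 to 9.10 and all Pax5KO arrays below them. Bub1b, at -0.69 (SE 0.18, adjusted p = 0.0696), was the closest to the threshold after Ccna2.

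Set beside ProB cells, Pax5KO engrafted cells were lower in Plk1 (-1.36, SE 0.29, adjusted p = 0.0313), Ccna2 (-1.36, SE 0.30, adjusted p = 0.0346) and Nuf2 (-1.63, SE 0.36, adjusted p = 0.0353). The largest difference, that of Hmmr (-2.07, SE 0.53, adjusted p = 0.0629), was not called; Hmmr read 7.92, 8.31 and 7.48 in Pax5KO and 8.83, 9.08 and 8.79 in WT engrafted cells. Genotype, transplant, sort gate and donor stage differ together here and cannot be told apart. None of the 3 calls held without Pax5KO array 1 or 3, WT engrafted array 1 or 3, or any ProB or PreB array (adjusted p 0.0504 to 0.164 over the 3 genes), and no member was called with only the 5 arrays compared. WT engrafted cells differed most from ProB in Ccnb2 (above), Hmmr (-1.08, SE 0.53, adjusted p = 0.323), Pttg1 (0.93, SE 0.43, adjusted p = 0.305) and Birc5 (0.83, SE 0.33, adjusted p = 0.255), with differences of both signs.

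**Figure D5:**
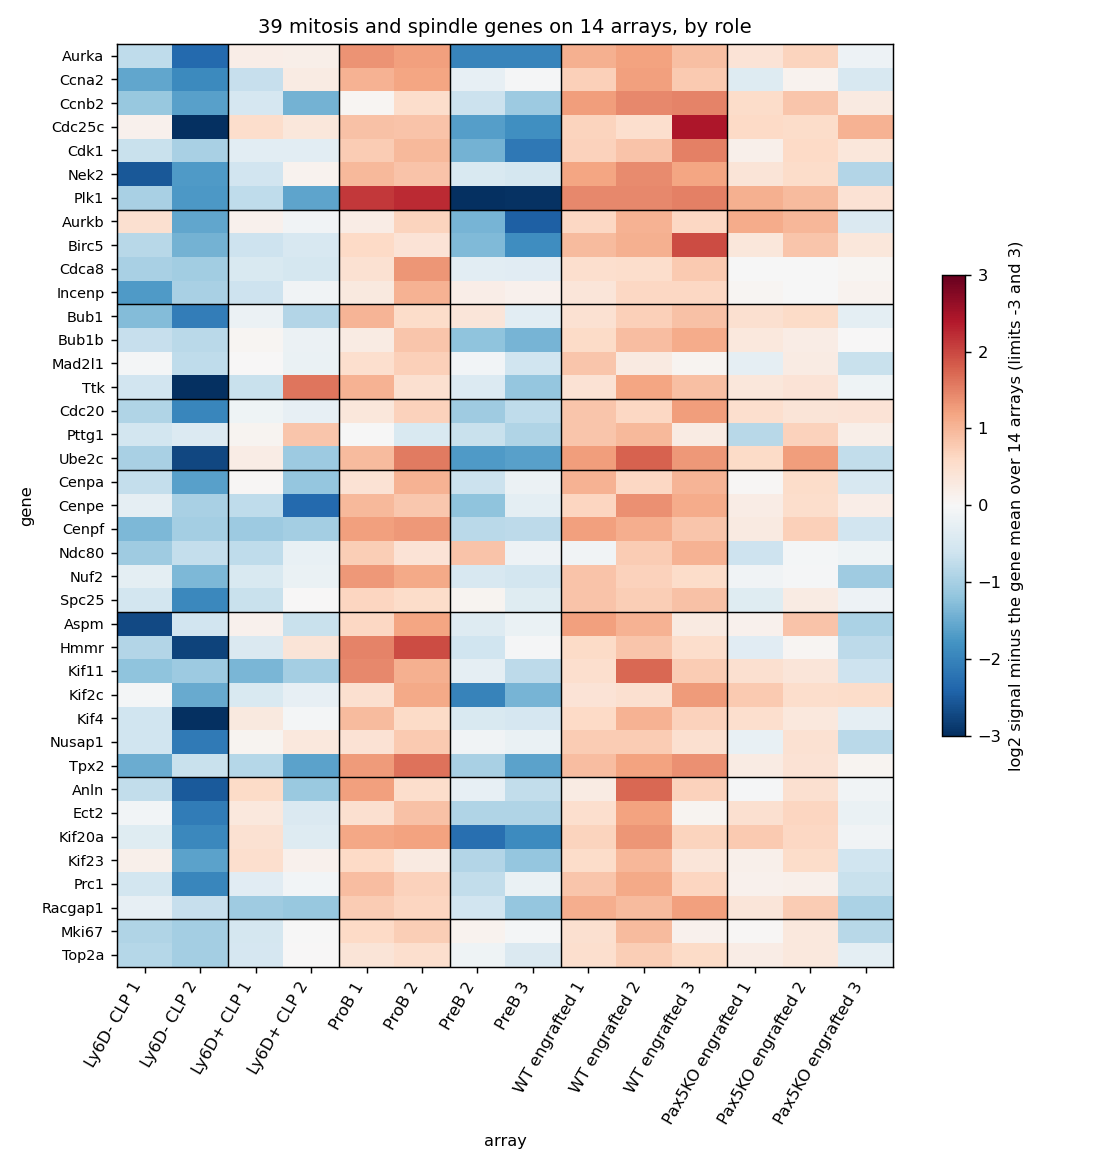
Log2 signal of the 39 members (rows, grouped by role) on the 14 arrays (columns), shown as the difference from each gene's mean, with colours limited at -3 and 3. ProB and WT engrafted columns are mostly above the mean, and Plk1 in PreB and several members on Ly6D- CLP array 2 are the lowest.

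Other genes of the cell cycle were followed in 3 lists. Of 83 measured other mitotic genes (of 85 listed), 12 rose and none fell from Ly6D+ CLP to ProB (median 0.90). Of all genes 1.93% were called higher and 5.36% lower there. From ProB to PreB 18 fell and none rose (median -1.14), where 5.19% of all genes were lower and 6.35% higher. Cdc25b, a phosphatase that starts mitosis, rose by 3.55 (SE 0.31, adjusted p = 0.00049) to ProB. It was also lower in Pax5KO than in WT engrafted cells, 6.61 against 10.31 as group means, a fall of 3.70 (SE 0.26, limma adjusted p = 7.24e-05). In that comparison 1 gene of the list rose, 2 fell and the median was -0.45. Of all genes 3.64% were higher and 2.29% lower, so the list had no more calls than that background. The fall of Cdc25b is larger than that of any member in the same comparison.

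DNA replication genes also fell from ProB to PreB. Of 44 measured (of 46 listed), 18 fell and none rose from ProB to PreB (median -1.30), where 5.19% of all genes were lower and 6.35% higher. Among them was Orc1, which marks replication origins (3.04 against 6.58, a fall of 3.54, SE 0.35, limma adjusted p = 0.000511). Between Pax5KO and WT engrafted cells 2 rose and 2 fell, with a median of 0.40, where 3.64% of all genes were higher and 2.29% lower. E2f2, an activator of S phase genes, fell by 3.57 (SE 0.25, adjusted p = 7.75e-05).

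Of 20 G1 and quiescence regulators, 9 rose and 4 fell from ProB to PreB (all genes: 6.35% higher, 5.19% lower). Btg2, an antiproliferative gene, rose by 5.42 (SE 0.40, adjusted p = 0.000106) and Klf2, a factor of resting lymphocytes, by 5.10 (SE 0.47, adjusted p = 0.000353). The D-type cyclins Ccnd3 and Ccnd2 fell by 4.25 (SE 0.43, adjusted p = 0.000555) and fell by 3.68 (SE 0.38, adjusted p = 0.000622). Between Pax5KO and WT engrafted cells 5 rose and 6 fell (all genes: 3.64% higher, 2.29% lower), and Klf2 fell by 6.62 (SE 0.39, limma adjusted p = 2.73e-05). As group means Klf2 was 10.32 in WT engrafted and 10.23 in PreB cells, against 3.70 in Pax5KO engrafted and 5.13 in ProB cells.

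The 10 genes outside the list whose log2 signal followed the member mean most closely over the 14 arrays were Ckap2 (r = 0.951), Gtse1 (0.945), Kpna2 (0.939), Bub3 (0.938), Asf1b (0.932), Ckap2l (0.931), Nedd8 (0.930), Pclaf (0.926), Cdc45 (0.909) and Sgo1 (0.900). Of these, 5 stand in the list of other mitotic genes and Cdc45 in that of DNA replication. The arrays share group structure and scaling, so these r describe the table only.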

How the data were processed

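Sorted mouse marrow cells were profiled on Affymetrix arrays. The deposited table of the authors gives log2 signals of 45101 probe sets on each array. RMA, GCRMA and limma appear among the tools in the submitters' processing notes; which of them produced this table is not given in the sources used here. The table was used without further scaling. Array medians of 2.41 to 2.52 lay at the floor, so their agreement cannot show that the arrays were scaled alike. Upper quartiles ran from 5.39 to 5.98. Equal array medians over brighter genes and quantile normalization were run as alternatives. The number of arrays limits the precision.

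Symbols came from the platform annotation, brought up to date with RefSeq genes (GRCm38.p6), which gave 1 symbol to 34945 probe sets, several to 932 and none to 9160; 64 were controls, and 34741 of those with 1 symbol matched. The probe set with the highest mean stood for each of 18193 genes. Tests used limma 3.58.1 under R 4.3.3 (eBayes after lmFit, a mean per group, all 14 arrays, 8 residual degrees of freedom), with both directions tested, with Benjamini-Hochberg adjustment over all genes and calls under 0.05. Figures and summaries used Python 3.11.15. The fit was tested on simulated data, with known changes put into PreB against ProB. It recovered 14% of genes with a log2 change of 1, 42% with 2, 72% with 3 and 82% with 4, with 11 false calls. Most changes of 1 were thus missed, so a member without a call may still differ.

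Members and lists were chosen with earlier results of these data known. Named in each comparison were the called members (the 6 largest each way where over 12 were called), the 4 largest differences where fewer than 4 were called, and Ccna2, Ccnb2, Cdk1, Plk1, Aurkb, Cdc20, Cenpa, Top2a and Mki67 throughout; of the other lists, up to 2 called genes in each direction. Further members were named by role after their values were seen. Same-numbered engrafted arrays deviated together (correlations 0.152, 0.331 and 0.562 over 8807 genes that are not dim). The main fit did not pair them, so its p-values ignore this. The replicate block, an alternative, used the numbers as pairs, and with it no member was called between the engrafted groups. No 2 arrays held identical values. Alternatives were the mean of all probe sets, no dim genes, quantile normalization, equal array medians, array weights, a trend and robust prior, a replicate block, only the arrays compared, a term for Xist, and leaving out each array; leaving out both engrafted arrays numbered 3 was chosen after seeing the data.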

Additional observations from a re-analysis of the deposited data

How the results depend on the processing

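No member's call changed sign under any alternative. Counts of called members, reported as 1 (Pax5KO against WT engrafted), 0 (Ly6D+ against Ly6D- CLP), 8 (ProB against Ly6D+ CLP), 15 (PreB against ProB), 0 (WT engrafted against ProB) and 3 (Pax5KO engrafted against ProB), moved as follows. With the mean of all probe sets they were 3 between the engrafted groups, 2 between the CLP groups and 6 for Pax5KO engrafted against ProB. Without dim genes 2 were called between the engrafted groups. Quantile normalization gave 3 between the engrafted groups, 13 for ProB against Ly6D+ CLP, 1 for WT engrafted against ProB and 6 for Pax5KO engrafted against ProB. Equal array medians gave 6, 1, 17 and 9 for the engrafted groups, the CLP groups, ProB against Ly6D+ CLP and Pax5KO engrafted against ProB. Array weights gave 12 between the engrafted groups and 3 for ProB against Ly6D+ CLP. The replicate block gave 0 between the engrafted groups and 5 for ProB against Ly6D+ CLP; the numbers of the cells without transplant are shared only as numbers (correlations of deviations from -0.044 to 0.101). With only the arrays compared, which leaves fewer degrees of freedom, 0, 0, 7, 1 and 0 were called for the engrafted groups, ProB against Ly6D+ CLP, PreB against ProB, WT engrafted against ProB and Pax5KO engrafted against ProB, and 0 without the engrafted arrays numbered 3 between the engrafted groups. Leaving out 1 array gave 0 to 2, 0 to 9, 5 to 10, 9 to 19, 0 to 1 and 0 to 5 in the order above, and 19 to 32 for the F test. The median difference with the mean of all probe sets was 0.61 between the CLP groups and 0.85 for ProB against Ly6D+ CLP, and leaving out 1 array moved the former from 0.40 to 1.08. The member mean over all probe sets was 6.63 in Ly6D- CLP, 7.35 in Ly6D+ CLP, 8.32 in ProB, 6.90 in PreB, 8.46 in WT engrafted and 7.84 in Pax5KO engrafted cells, in the same order as reported. Means over probe sets include some at the floor, as in Aurka, Cenpf, Tpx2 and Kif2c, and a smaller difference there is no separate reading of the gene. Where no cause is named, it was not tested. Signal over background limits Cdc25c, at the floor on 1 array.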
